A study of Mus musculus with 8 samples.

Results

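Focal adhesions are the sites where fibroblasts hold the extracellular matrix (ECM), and the genes described here encode 10 of the adaptor proteins and kinases found on their cytoplasmic face. They are *Ilk*, *Parva*, *Parvb*, *Ptk2*, *Pxn*, *Fermt2*, *Tln1*, *Tln2*, *Vcl* and *Zyx*, taken as the entries with these gene symbols among the 54532 entries of the deposited count table. All 10 had enough counts to be tested. The RNAseq data came from primary lung fibroblasts (pFBs) of female mice with a C57/black strain background, and 4 libraries of wild type mice (WT1 to WT4) were compared with 4 libraries of homozygous transgenic mice expressing human IGFBP5 (HOMO1 to HOMO4). The transgene, human insulin-like growth factor-binding protein 5 (hIGFBP5), was knocked in with CRISPR/Cas9 and was expressed ubiquitously, so that no cell type in the HOMO lungs lacked it by design. Cells grew out of minced lung, were cultured in medium with fetal bovine serum and received no treatment. The age of the mice and the number of mice or knock-in founder lines behind the libraries are not given in the sources used here.

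In an adhesion, integrins span the plasma membrane and bind the ECM outside the cell, while talins and kindlins bind their cytoplasmic tails and switch them to the active state. Vinculin and the complex of integrin-linked kinase (ILK), PINCH and parvin then tie the cluster to actin filaments, zyxin joins where actin is under tension, and focal adhesion kinase (FAK) with paxillin turns attachment into signals for spreading, migration and survival. In lung fibroblasts these structures grow with matrix stiffness and carry the contractile force of myofibroblasts.

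Between 17236521 and 29028769 reads were counted in the WT libraries and between 19009027 and 31987790 in the HOMO libraries, and levels are given as CPM (counts scaled to library size) on library sizes scaled by edgeR's TMM method. WT1 with WT2, HOMO1 with HOMO2 and HOMO3 with HOMO4 were near-identical, with a coefficient of variation between 4.74% and 7.66% across genes against between 31.6% and 58.5% for the other pairs of a genotype. They differed by more than sampling noise, with a chi-square per degree of freedom between 4.42 and 8.21, and whether such pairs share a mouse or culture is not given, so that p-values measure only the spread between these libraries, which may be technical. For this reason calls are also given with these pairs summed, which leaves 3 WT and 2 HOMO units, and there edgeR called 0 of 16130 genes, of which 2057 had an unadjusted p under 0.05, while DESeq2 called 720. Fibroblast markers summed to between 12937 and 16618 CPM in WT and between 14002 and 24381 CPM in HOMO libraries, a sum led by collagen genes, while *Pdgfrb* and *Vim*, 2 of the 9 markers, were downregulated (log2 fold change -0.97 and -0.65, edgeR adjusted p = 0.0251 and 0.0430). Leukocyte markers summed to 110 and 141 CPM in WT1 and WT2, to 1871 and 1098 CPM in WT3 and WT4, and to between 23.4 and 156 CPM in HOMO libraries. Smooth muscle and myofibroblast markers, a sum led by *Acta2*, summed to between 772 and 2713 CPM in WT libraries, to 199 and 206 CPM in HOMO1 and HOMO2, and to 1454 and 1430 CPM in HOMO3 and HOMO4. Mesothelial markers summed to 21.3 and 23.3 CPM in WT1 and WT2, to 152 and 117 CPM in WT3 and WT4 and to between 90.1 and 129 CPM in HOMO libraries, with 1 of the 4 upregulated. The epithelial, endothelial, skeletal muscle and platelet lists each summed to at most 20.6 CPM in any library, and the skeletal muscle markers *Myod1* and *Myog* were at 0 throughout. Mouse *Igfbp5*, a row that does not measure the human transgene, stood at 409 CPM in WT3 and between 1.07 and 9.65 CPM in the other libraries.

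Of the 10 genes, *Parvb* and *Ptk2* were downregulated in HOMO pFBs and *Zyx* was upregulated, while the other 7 did not pass the test. A differentially expressed gene (DEG) had an adjusted p under 0.05 in edgeR's quasi-likelihood test and an absolute log2 fold change above 0.6. By this rule 3 of the 10 were DEGs, against 12.1% of the 14150 genes tested (1716 genes). Upregulated DEGs made up 5.94% of all genes tested and 1 of the 10, and downregulated DEGs made up 6.18% of all genes tested and 2 of the 10. The CPM of the genotypes did not overlap for 5 of the 10, *Zyx* and *Tln1* with HOMO above and *Parva*, *Parvb* and *Ptk2* with HOMO below, against 27.3% of all genes tested. The median log2 fold change of the 10 was -0.05, beside -0.04 over all genes tested, with 4 values above 0 and 6 below. With near-identical libraries summed, edgeR called 0 of the 10 (*Parvb* and *Zyx* had an unadjusted p under 0.05) and DESeq2 called *Parvb* alone.

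**Figure D1:**
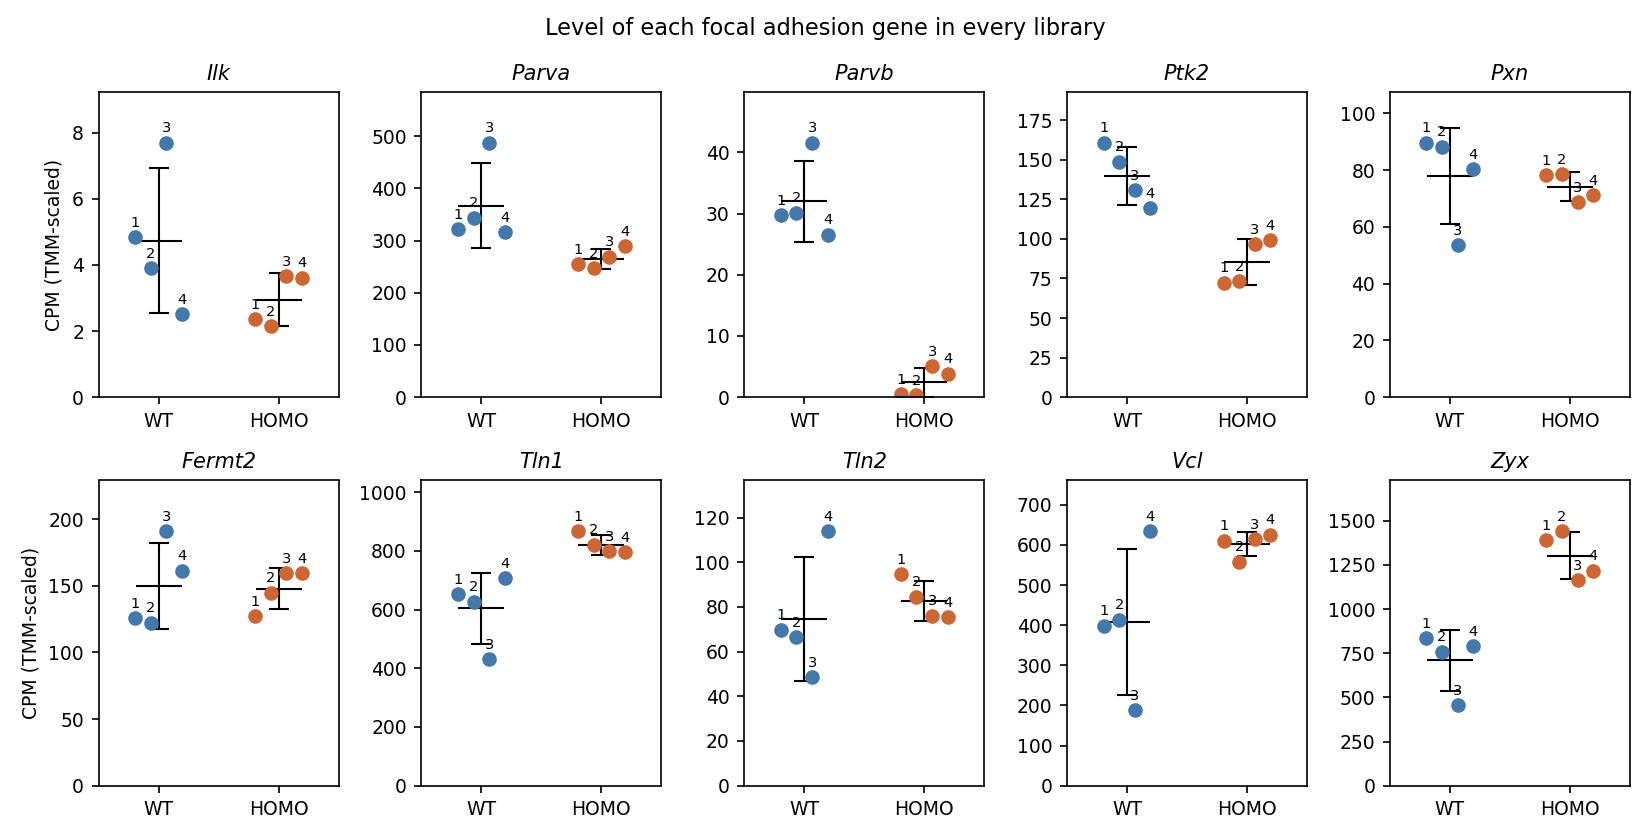
Level of each of the 10 genes in every library, as TMM-scaled CPM on a linear axis from 0 (its own for each gene), with points numbered by replicate and bars for the mean ± SD of the 4 libraries of a genotype. *Parvb* and *Ptk2* were lower and *Zyx* and *Tln1* higher in all 4 HOMO libraries than in any WT library, and WT3 was the lowest WT library for *Pxn*, *Zyx*, *Vcl*, *Tln1* and *Tln2*.

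Levels of different genes were compared per kilobase (kb) of annotated exon. In WT libraries *Zyx* was the most abundant, at 132 ± 32.2 CPM per kb (SD, n = 4), followed by *Tln1* at 61.6 ± 12.3, *Vcl* at 49.9 ± 22.2, *Parva* at 36.1 ± 7.97 and *Fermt2* at 28.9 ± 6.27 CPM per kb. *Ptk2* at 11.8 ± 1.56, *Pxn* at 9.50 ± 2.05, *Parvb* at 7.25 ± 1.49 and *Tln2* at 4.06 ± 1.51 CPM per kb formed a lower group, and *Ilk* was last at 1.73 ± 0.797 CPM per kb. In this order *Zyx* stood clear of *Tln1*, and *Fermt2* of *Ptk2*, whereas all other neighbours overlapped in the range of their 4 WT libraries. In HOMO libraries the order was the same at the top, with *Zyx* at 242 ± 24.6, *Tln1* at 83.7 ± 3.37 and *Vcl* at 73.5 ± 3.66 CPM per kb, each clear of the next. *Parvb* moved to the last place there, at 0.549 ± 0.539 CPM per kb, next to *Ilk* at 1.07 ± 0.291 CPM per kb, which it overlapped.

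The parvins bind ILK through their calponin homology domains and connect it to actin, and *Parvb* encodes the beta form, which in adult animals is prominent in muscle and also found in fibroblasts. Its sequence window is shown because this gene had the largest difference of the 10, together with the windows of *Vcl* and *Fermt2*, which hold the CArG box, the element bound by serum response factor at many actin cytoskeleton genes. Windows start 250 bases before the transcription start site in RefSeq (build GRCm38.p6), and the *Fermt2* window ends where the annotated gene begins. Capitals mark matches on either strand to the CArG box, to TGANTCA (AP-1), to GGAATG (TEAD) and to GGGCGG (GC box). In *Vcl* 2 of the GC boxes overlap.
Parvb, chr15:84231793-84232042, plus strand: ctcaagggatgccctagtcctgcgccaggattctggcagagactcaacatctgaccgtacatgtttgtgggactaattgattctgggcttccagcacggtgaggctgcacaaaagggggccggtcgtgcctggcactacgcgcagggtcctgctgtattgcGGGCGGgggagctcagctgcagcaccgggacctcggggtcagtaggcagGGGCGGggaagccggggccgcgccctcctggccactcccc
Vcl, chr14:20929148-20929397, plus strand: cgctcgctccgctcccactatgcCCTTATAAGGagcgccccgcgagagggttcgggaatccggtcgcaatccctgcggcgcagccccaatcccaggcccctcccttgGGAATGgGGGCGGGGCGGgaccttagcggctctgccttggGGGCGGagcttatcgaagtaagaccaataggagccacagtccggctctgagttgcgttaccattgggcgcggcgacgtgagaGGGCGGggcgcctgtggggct
Fermt2, chr14:45530119-45530315, minus strand: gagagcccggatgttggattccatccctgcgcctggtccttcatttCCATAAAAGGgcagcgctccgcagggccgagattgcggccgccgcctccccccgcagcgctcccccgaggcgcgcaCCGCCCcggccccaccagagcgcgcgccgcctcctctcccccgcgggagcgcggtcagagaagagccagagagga
The CArG box lay 227 bases before the RefSeq start of *Vcl* and 204 bases before that of *Fermt2*. The printed window of *Fermt2* leaves out the last 53 bases before its RefSeq start. Among the 27025 genes with a RefSeq window, 1.62% hold such a match in the same 250 bases. The window of *Vcl* also holds GGAATG, as do those of 14.4% of genes, and GC boxes occur in the windows of 35.4% of genes. The AP-1 letters were found in the window of *Zyx* alone among the 6 genes with a window, 121 bases before its RefSeq start, and in 7.82% of all genes. RefSeq windows were also read for *Tln1* and *Ilk*; *Parva*, *Ptk2*, *Pxn* and *Tln2* had none in the table used. These matches describe letters in a window and do not show a binding site.

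*Parvb* (chr15:84232043-84315688, plus strand; GENCODE M21, GRCm38, as for all gene positions here) had 529, 702, 724 and 686 counts in WT1 to WT4, or 29.8, 30.1, 41.5 and 26.6 CPM. In HOMO1 to HOMO4 it had 11, 11, 100 and 76 counts, or 0.490, 0.333, 5.07 and 3.81 CPM. Every HOMO library was far below every WT library, and within HOMO the pair HOMO3 and HOMO4 stood 10.8-fold above HOMO1 and HOMO2. The fold change was -3.74 ± 0.81 on the log2 scale (SE; edgeR adjusted p = 0.0220), which made *Parvb* a downregulated DEG with a mean 13.2-fold lower in HOMO. The call was lost without HOMO1 (adjusted p = 0.0573) and with near-identical libraries summed in edgeR (adjusted p = 0.298), and it was kept in DESeq2 after summing (adjusted p = 0.000840). The summed smooth muscle and myofibroblast markers differed the same way inside HOMO, at most 206 CPM in HOMO1 and HOMO2 against at least 1430 CPM in HOMO3 and HOMO4. This sum is mostly 1 gene, *Acta2*, at 190, 197, 1363 and 1337 CPM in HOMO1 to HOMO4. However, WT1 and WT2, at 831 and 772 CPM, had lower sums than HOMO3 and HOMO4 and higher *Parvb*. The part of smooth muscle cells or myofibroblasts in the result was not tested, and fewer cells of a type and less RNA per cell cannot be told apart in bulk libraries.

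*Parva* (chr7:112427505-112591692, plus strand) encodes the alpha form, the widespread parvin of mesenchymal cells. It stood at 321, 344, 487 and 316 CPM in WT1 to WT4 and at 254, 247, 269 and 289 CPM in HOMO1 to HOMO4. All HOMO libraries were below all WT libraries, but WT3 was well above the other WT libraries, and the log2 fold change of -0.47 ± 0.17 (95% confidence interval -0.86 to -0.09) did not pass the test (edgeR adjusted p = 0.0956). Chromosome 7 as a whole was raised in WT3, where its genes had a median 0.36 log2 units above the other WT libraries, and the median log2 fold change of its 1045 tested genes was -0.29. Without WT3 the log2 fold change of *Parva* was -0.31 (adjusted p = 0.0618), and whether this shift contributes to its values was not tested.

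Shares within the parvin family and its sum are given as a description, with no test. *Parvb* made up between 16.1% and 17.5% of parvin CPM per kb in WT libraries, a nearly constant share, and 0.440%, 0.308%, 4.12% and 2.91% in HOMO1 to HOMO4. *Parvg*, the parvin of blood cells, made up at most 1.15% in any library and had too few counts to be tested. The summed parvin level was 43.5 ± 9.41 CPM per kb in WT and 26.8 ± 2.41 CPM per kb in HOMO libraries (SD, n = 4), and its 4 HOMO values (24.4 to 29.7) lay below its 4 WT values (37.3 to 57.4).

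**Figure D2:**
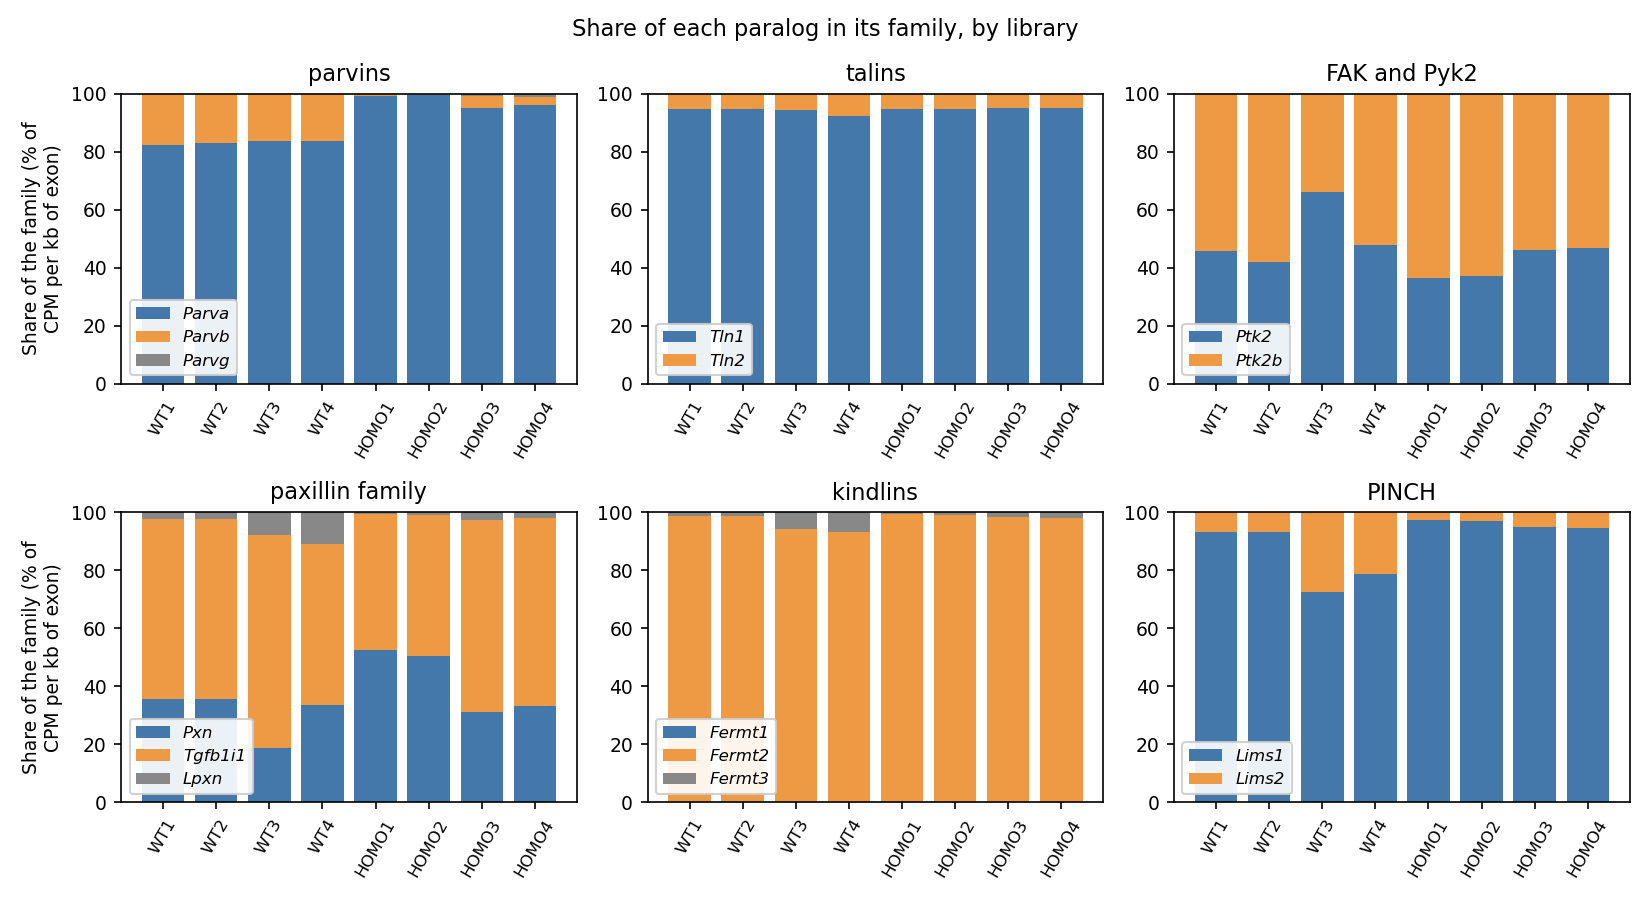
Share of each paralog in its family in every library, as a percent of the family's summed CPM per kb of exon, for the families of 5 of the adhesion proteins and for PINCH. *Parvb* took between 16.1% and 17.5% of parvins in WT and at most 4.12% in HOMO libraries, whereas *Tln1* kept between 92.1% and 95.2% of talins throughout.

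*Ilk* (chr7:105736592-105742925, plus strand) encodes the pseudokinase at the centre of the ILK, PINCH and parvin complex. It had 86, 91, 134 and 65 counts in WT1 to WT4, or 4.84, 3.90, 7.69 and 2.52 CPM, and 53, 71, 72 and 72 counts in HOMO1 to HOMO4, or 2.36, 2.15, 3.65 and 3.61 CPM. WT3 was the highest library and WT4 lay among the HOMO values, so that the genotypes overlapped. The WT libraries spanned 3.06-fold. The log2 fold change was -0.69 ± 0.38 (95% confidence interval -1.55 to 0.18, edgeR adjusted p = 0.246). No difference was detected, and the part of the low counts in this log2 fold change was not tested. Without WT3 the value was -0.35 (adjusted p = 0.473), and the median rise of chromosome 7 genes in WT3, 0.36 log2 units, covers *Ilk* as it does *Parva*; its part was not tested.

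*Ilk* had the lowest count of the 10 genes in every WT library, and the annotation places 89.7% of the 2744 exon bases of *Ilk* under exons of genes on the opposite strand. *Taf10*, a subunit of transcription factor TFIID, covers 76.7% of them and *Rrp8*, a nucleolar protein gene, covers 12.9%, which leaves 283 bases that belong to *Ilk* alone. Whether the counting used strand, and what became of reads in shared bases, is not given in the sources used here, and the kit named in the labels is not a directional one. If all its counts came from the 283 unshared bases, the level of *Ilk* would be 16.7 CPM per kb in WT and 10.4 CPM per kb in HOMO, between *Fermt2* and *Ptk2* in WT. Among protein-coding genes with at least 80% of exon bases shared, 8.2% of 317 were tested, against 52.9% of 15965 with under 1% shared. These groups were not matched for length or kind of gene, so the shares do not show what sharing did to *Ilk*. Since the handling of shared bases is not given, *Ilk* values are uncertain both as a level and as a difference. The part of exon sharing in them was not tested. *Taf10* itself was a downregulated DEG, at 78.4 ± 14.5 CPM in WT and 49.3 ± 5.94 CPM in HOMO (SD, n = 4; edgeR adjusted p = 0.0324, and 0.390 with near-identical libraries summed).

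The other genes listed as members or partners of the complex gave 1 DEG in 5 tested of 6. It was upregulated, where 12.1% of all genes tested were DEGs and 5.94% upregulated ones. DESeq2 called this gene and also *Lims2*, the latter downregulated. *Lims1*, which encodes PINCH1, the LIM-domain adaptor that binds the ankyrin repeats of ILK, stood at 222, 237, 162 and 277 CPM in WT1 to WT4 and at 408, 400, 361 and 354 CPM in HOMO1 to HOMO4. All HOMO libraries were above all WT libraries, with a log2 fold change of 0.76 ± 0.17 (edgeR adjusted p = 0.0265), while the summed libraries gave an adjusted p of 0.386 in edgeR and 0.323 in DESeq2, and leaving out any library but WT3 or WT4 gave between 0.0549 and 0.0911. *Rsu1*, the Ras suppressor that binds PINCH1, had the highest CPM of the list among genes not called and a log2 fold change of -0.09 ± 0.17 (edgeR adjusted p = 0.759). *Lims1* made up between 72.5% and 93.2% of PINCH CPM per kb in WT and between 94.6% and 97.2% in HOMO. The low WT shares were those of WT3 and WT4, where *Lims2* stood at 38.6 and 47.2 CPM against 10.2 and 10.9 CPM in WT1 and WT2, and where the leukocyte markers were also high.

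*Ptk2* (chr15:73205102-73423280, minus strand) encodes FAK, the tyrosine kinase that is phosphorylated when integrins cluster and recruits SRC. It stood at 161, 149, 131 and 119 CPM in WT1 to WT4 and at 72.4, 73.1, 96.8 and 99.3 CPM in HOMO1 to HOMO4. The genotypes did not overlap, and HOMO1 and HOMO2 were the lowest libraries, with HOMO3 and HOMO4 1.35-fold above them. The log2 fold change of -0.71 ± 0.16 made *Ptk2* a downregulated DEG (edgeR adjusted p = 0.0261), 1.64-fold lower in HOMO by the means. The call was lost without WT1, WT2, HOMO1 or HOMO2, each left out in turn (adjusted p between 0.0541 and 0.0976), and with near-identical libraries summed (adjusted p = 0.390 in edgeR and 0.352 in DESeq2), where the log2 fold change was -0.64.

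*Pxn* (chr5:115506676-115555987, plus strand) encodes paxillin, the scaffold on which FAK, vinculin and the GIT and PIX proteins meet. It stood at 89.6, 88.2, 53.4 and 80.2 CPM in WT1 to WT4 and at 78.1, 78.6, 68.6 and 71.2 CPM in HOMO1 to HOMO4. The HOMO libraries lay inside the WT range, whose low end was WT3, and the log2 fold change was -0.07 ± 0.17 (95% confidence interval -0.47 to 0.33; edgeR adjusted p = 0.814).

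With all libraries the relatives of both proteins did not pass the test. *Ptk2b*, which encodes PYK2, the calcium-responsive relative of FAK, stood at 120, 129, 41.9 and 81.5 CPM in WT1 to WT4 and between 71.0 and 78.9 CPM in HOMO libraries, with WT3 below and the other WT libraries above the HOMO range. Its log2 fold change was -0.32 ± 0.31 (edgeR adjusted p = 0.508), and it was -0.56 without WT3 (adjusted p = 0.0457), under the fold change threshold. Without WT3 and WT4 it was -0.74 (edgeR adjusted p = 0.00204), in a fit that rests for WT on the near-identical WT1 and WT2. *Ptk2* made up between 42.0% and 66.1% of the summed CPM per kb of *Ptk2* and *Ptk2b* in WT and between 36.5% and 46.6% in HOMO libraries. *Tgfb1i1*, which encodes the paxillin relative Hic-5, stood at 107, 104, 142 and 91.2 CPM in WT1 to WT4 and at 47.7, 51.4, 99.9 and 94.7 CPM in HOMO1 to HOMO4, with HOMO1 and HOMO2 low and HOMO3 and HOMO4 inside the WT range (log2 fold change -0.60 ± 0.28, adjusted p = 0.171). *Lpxn*, the paxillin relative of leukocytes, had -2.22 ± 0.72 (adjusted p = 0.0739), with its highest levels of 4.88 and 5.69 CPM in WT3 and WT4, the libraries with the most leukocyte marker RNA. *Pxn* accordingly varied between 18.8% and 35.7% of its family in WT and between 31.0% and 52.4% in HOMO libraries, ranges that overlapped.

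None of the 25 listed partners of FAK and paxillin, all tested, was a DEG in edgeR, beside 12.1% of all genes tested. An unadjusted p under 0.05 was found for 9 of the 25 and for 4573 of the 14150 genes, and the genotypes did not overlap for 7 of the 25 (28%), beside 27.3% of all genes tested. The genes with the highest CPM, which is not divided by length, were *Asap1*, an ARF GTPase-activating protein of adhesions, at 402, 412, 559 and 602 CPM in WT1 to WT4 and between 346 and 384 CPM in HOMO libraries, and *Ptpn11*, the phosphatase SHP2. Both were lower in all 4 HOMO libraries, with log2 fold changes of -0.45 ± 0.17 (adjusted p = 0.105) and -0.49 ± 0.16 (adjusted p = 0.0757). The median log2 fold change of this list was -0.03. DESeq2 called 1 of the 25, *Lpxn*, and limma-voom with sample weights called 2, *Ptk2b* (-0.76) and *Elmo1*.

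*Fermt2* (chr14:45458795-45530118, minus strand) encodes kindlin-2, which binds the integrin beta tail beside talin. It stood at 126, 122, 191 and 161 CPM in WT1 to WT4 and at 127, 145, 160 and 160 CPM in HOMO1 to HOMO4. The genotypes overlapped throughout, with WT1 and WT2 at the low end, and the log2 fold change was -0.02 ± 0.17 (95% confidence interval -0.42 to 0.37; edgeR adjusted p = 0.948). This value had no stable direction, since it was 0.25 with WT3 and WT4 left out. *Fermt2* was the main kindlin in every library, with between 93.2% and 98.5% of kindlin CPM per kb in WT and between 97.9% and 99.2% in HOMO. *Fermt1*, the epithelial kindlin, was at 0 in 6 of 8 libraries and at 0.0429 CPM in WT2 and 0.150 CPM in HOMO4. *Fermt3*, the kindlin of blood cells, stood at 13.3 and 13.05 CPM in WT3 and WT4 and between 1.16 and 3.71 CPM in the other libraries (log2 fold change -1.66 ± 0.73, adjusted p = 0.154).

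*Tln1* (chr4:43531519-43562691, minus strand) encodes talin-1, the main link from integrins to actin in fibroblasts. It stood at 652, 627, 430 and 707 CPM in WT1 to WT4 and at 866, 822, 798 and 794 CPM in HOMO1 to HOMO4. All HOMO libraries were above all WT libraries and close to each other, while WT3 was the lowest library. The log2 fold change of 0.44 ± 0.17 (95% confidence interval 0.04 to 0.84) did not pass the test over all genes (edgeR adjusted p = 0.123). Chromosome 4 was raised in WT4, with a median of 0.36 log2 units above the other WT libraries, and WT4 was also the highest WT library for *Tln1*. Not every gene followed its chromosome. The same median for chromosome 9 was 0.24 in WT3 and -0.19 in WT4, the lowest and highest WT libraries for *Tln2*. For chromosome 14 it was -0.23 in WT4, the highest WT library for *Vcl*. The part of such shifts in the values of these genes was not tested.

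*Tln2* (chr9:67217087-67559703, minus strand) encodes talin-2, which is prominent in muscle and brain. It stood at 69.9, 66.3, 48.4 and 114 CPM in WT1 to WT4 and at 94.5, 84.5, 76.0 and 75.4 CPM in HOMO1 to HOMO4. WT3 was the lowest and WT4 the highest library of all, with the HOMO libraries between them, and the log2 fold change was 0.15 ± 0.24 (95% confidence interval -0.41 to 0.70; adjusted p = 0.716). Talin-2 remained the minor form, with between 5.35% and 7.92% of talin CPM per kb in WT and between 4.82% and 5.50% in HOMO libraries.

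*Vcl* (chr14:20929398-21033676, plus strand) encodes vinculin, which binds stretched talin and reinforces its link to actin. It stood at 399, 413, 188 and 634 CPM in WT1 to WT4 and at 611, 558, 614 and 626 CPM in HOMO1 to HOMO4. The HOMO libraries were within 1.12-fold of each other, whereas the WT libraries spanned 3.36-fold, with WT4 above every HOMO library and WT3 below all others. The log2 fold change was 0.56 ± 0.31 (95% confidence interval -0.15 to 1.27; edgeR adjusted p = 0.247). Without WT3 it was 0.32 (adjusted p = 0.245) and without WT4 0.85 (adjusted p = 0.0738). With WT3 and WT4 left out together it was 0.57 with an adjusted p of 0.00557, still under the fold change threshold, and that fit rests on WT1 and WT2, which are near-identical. *Ap3m1* on the opposite strand shares 25.5% of the exon bases of *Vcl*, so that its level is uncertain by the part of reads that fall there, which was not tested.

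**Figure D3:**
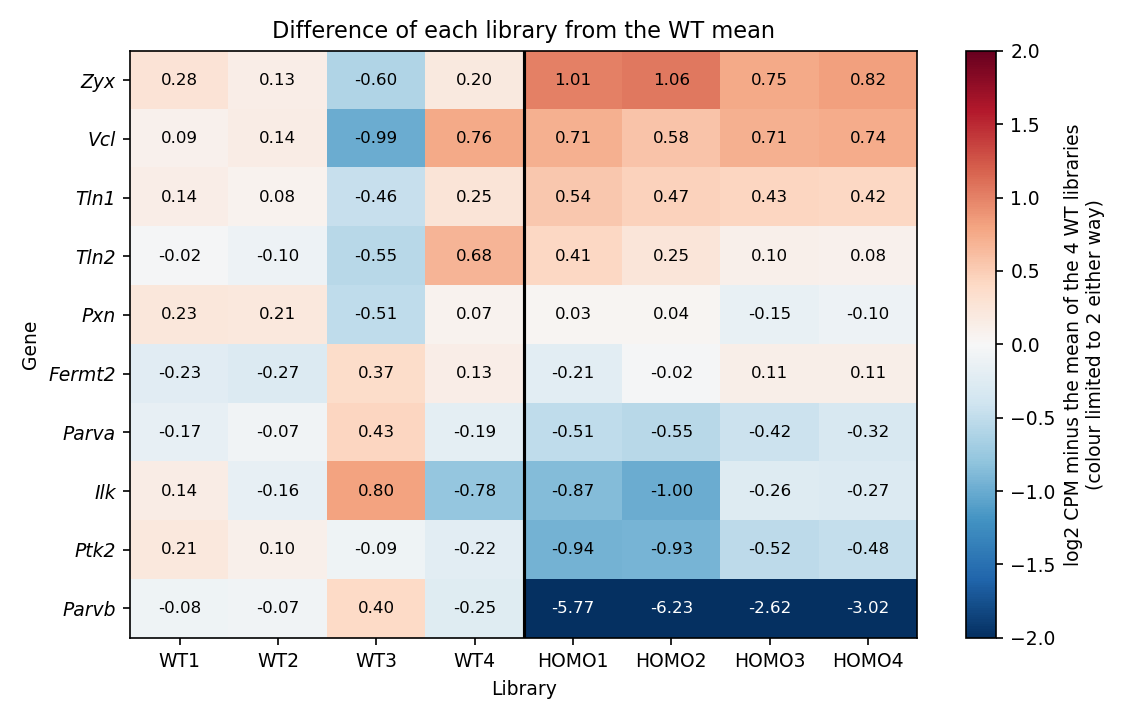
Log2 CPM of each of the 10 genes in each library minus the mean of the 4 WT libraries, with the value in each cell and colour limited to 2 in either direction; the line separates the genotypes. *Zyx*, *Vcl*, *Tln1* and *Tln2* are above 0 and *Parva*, *Ilk*, *Ptk2* and *Parvb* below 0 in all 4 HOMO libraries, and within WT the values of WT3 are the farthest from 0 for 8 of the 10 genes.

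The listed partners of talin, kindlin and vinculin gave 5 DEGs in 22 tested of 24, beside 12.1% of all genes tested, and all 5 were downregulated in HOMO pFBs, beside 6.18%. The tensins, which bind integrin tails and actin at fibrillar adhesions, supplied 3 of them, while the other tensin, *Tns2*, had a log2 fold change of -0.08 ± 0.12 (edgeR adjusted p = 0.650). *Tns3* stood at 902, 968, 704 and 1232 CPM in WT1 to WT4 and at 374, 353, 296 and 322 CPM in HOMO1 to HOMO4, a clear gap between the genotypes, with a log2 fold change of -1.50 ± 0.19 (edgeR adjusted p = 0.00408; 0.271 with near-identical libraries summed, and 0.00994 there in DESeq2). *Tns1* stood at 1049.5, 1040, 429 and 1146 CPM in WT1 to WT4 and at 438, 410, 449 and 449 CPM in HOMO1 to HOMO4, so that WT3 fell among the HOMO libraries while the other WT libraries were far above them (log2 fold change -1.07 ± 0.28, adjusted p = 0.0414, and between 0.0718 and 0.125 without any library but WT3). *Tns4*, the short tensin without an actin-binding region, had 9.002, 8.02, 0.574 and 4.68 CPM in WT1 to WT4 and at most 0.405 CPM in HOMO libraries, with WT3 close to them (-5.42 ± 1.13, adjusted p = 0.0194, and up to 0.0722 without HOMO1, HOMO2 or HOMO4). *Sorbs2*, an adaptor that binds vinculin, stood between 21.9 and 64.7 CPM in WT libraries, highest in WT3 and WT4, and between 5.87 and 11.3 CPM in HOMO libraries (-2.29 ± 0.43, adjusted p = 0.0133, and 0.0542 and 0.0534 without HOMO1 or HOMO2). The fifth was *Kank3*, a talin-binding protein with low counts, at -1.06 ± 0.29 (adjusted p = 0.0460), named after its value was seen. DESeq2 called the same 5 genes. With near-identical libraries summed, edgeR called none of the 5 (adjusted p between 0.246 for *Sorbs2* and 0.452 for *Kank3*), and DESeq2 called *Sorbs2* (adjusted p = 0.00112), *Tns3* and *Tns4* (0.00140) but not *Tns1* (0.342) or *Kank3* (0.296).

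The genes of this list with the highest CPM among those not called were *Flna* and *Actn4*. *Flna*, which encodes the actin crosslinker filamin A, had a log2 fold change of -0.26 ± 0.24 (edgeR adjusted p = 0.498), and *Actn4*, which encodes alpha-actinin-4, had -0.17 ± 0.15 (adjusted p = 0.455). The list's median log2 fold change was -0.35, and its share of DEGs was 22.7%, beside 12.1% of all genes tested.

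*Zyx* (chr6:42349630-42360213, plus strand) encodes zyxin, a LIM protein that moves to stress fibres under tension and recruits VASP and alpha-actinin for their repair. It stood at 836, 758, 454 and 791 CPM in WT1 to WT4 and at 1389, 1440, 1164 and 1218 CPM in HOMO1 to HOMO4. The HOMO libraries were all above the WT libraries, of which WT3 was far below the rest. The log2 fold change of 0.88 ± 0.21 (95% confidence interval 0.39 to 1.36) made *Zyx* an upregulated DEG (edgeR adjusted p = 0.0319), 1.84-fold higher in HOMO by the means. Leaving out WT3 kept the call, with a log2 fold change of 0.71, so that it did not rest on this library. The call was lost without WT2, HOMO1, HOMO2, HOMO3 or HOMO4, each left out in turn (adjusted p between 0.0597 and 0.103), and with near-identical libraries summed (adjusted p = 0.379 in edgeR and 0.228 in DESeq2), where the log2 fold change was 0.95. *Epha1* on the opposite strand shares 4.38% of the exon bases of *Zyx* and was itself higher in HOMO, at between 7.57 and 9.12 CPM against between 2.58 and 3.99 CPM in WT libraries.

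The relatives of zyxin were not called. *Lpp*, with the highest CPM of this list among genes not called, stood at 248, 238, 150 and 205 CPM in WT1 to WT4 and at 323, 273, 282 and 289 CPM in HOMO1 to HOMO4, all above the WT libraries, with a log2 fold change of 0.47 ± 0.17 (edgeR adjusted p = 0.103). *Trip6* overlapped between the genotypes, at 0.25 ± 0.15 (adjusted p = 0.270). Per kb of exon *Trip6* was the more abundant, at 31.7 CPM per kb in WT and 37.7 in HOMO against 9.53 and 13.2 CPM per kb for *Lpp*. Without WT3 and WT4 the log2 fold change of *Lpp* was 0.26.

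The list of zyxin relatives and LIM proteins of stress fibres also holds *Vasp*, *Enah*, *Evl* and *Palld*, which do not encode LIM proteins. Among its 21 genes, all tested, 5 were DEGs (23.8%, beside 12.1% of all genes tested), of which 4 were downregulated (6.18% of all genes tested). The PDZ and LIM domain proteins that sit on alpha-actinin along stress fibres gave 3 of these. The others of this family listed were not called. Their log2 fold changes were -1.65 ± 1.13 for *Pdlim3*, 0.91 ± 0.62 for *Pdlim4* and -0.42 ± 0.32 for *Pdlim7* (edgeR adjusted p = 0.343, 0.342 and 0.394). *Pdlim1* stood at 131, 111, 107 and 136 CPM in WT1 to WT4 and at 15.02, 15.6, 35.0 and 31.4 CPM in HOMO1 to HOMO4, with no WT library near the HOMO range and HOMO1 and HOMO2 lowest (log2 fold change -2.32 ± 0.31, edgeR adjusted p = 0.00419; 0.199 with near-identical libraries summed, and 8.64e-05 there in DESeq2). *Pdlim2* fell by 1.40 ± 0.32 on the log2 scale (adjusted p = 0.0266), with WT3 at 285 CPM against between 102 and 134 CPM in the other WT and between 55.1 and 64.0 CPM in HOMO libraries. *Pdlim5* fell by 0.85 ± 0.20 (adjusted p = 0.0281) from between 194 and 312 CPM to between 112 and 157 CPM, and with WT3 and WT4 left out its change of -0.56 no longer reached the fold threshold. *Fhl2*, a LIM-only coactivator that also lies on stress fibres, stood at 76.7, 69.7, 214 and 200 CPM in WT1 to WT4 and at 19.1, 20.03, 34.9 and 31.0 CPM in HOMO1 to HOMO4, all below the WT libraries (-2.41 ± 0.43, adjusted p = 0.0117). *Palld*, which encodes palladin, an actin-bundling protein of stress fibres and myofibroblasts, went the other way, from 157, 141, 301 and 237 CPM in WT1 to WT4 to 368, 381, 444 and 417 CPM in HOMO1 to HOMO4 (0.95 ± 0.24, adjusted p = 0.0383). Leaving out HOMO1 ended the calls of *Pdlim2*, *Pdlim5* and *Palld* (adjusted p = 0.0878, 0.0999 and 0.0929), as did leaving out HOMO2 or HOMO3, with HOMO4 for *Pdlim2* and HOMO4, WT1 or WT2 for *Palld*, whereas *Pdlim1* and *Fhl2* kept theirs without any 1 library. With near-identical libraries summed, edgeR called none of the 5 (adjusted p between 0.199 for *Pdlim1* and 0.390 for *Palld*), and DESeq2 called *Pdlim1* and *Fhl2* (adjusted p = 0.000637) but not *Pdlim2* (0.0705), *Pdlim5* (0.173) or *Palld* (0.317).

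**Figure D4:**
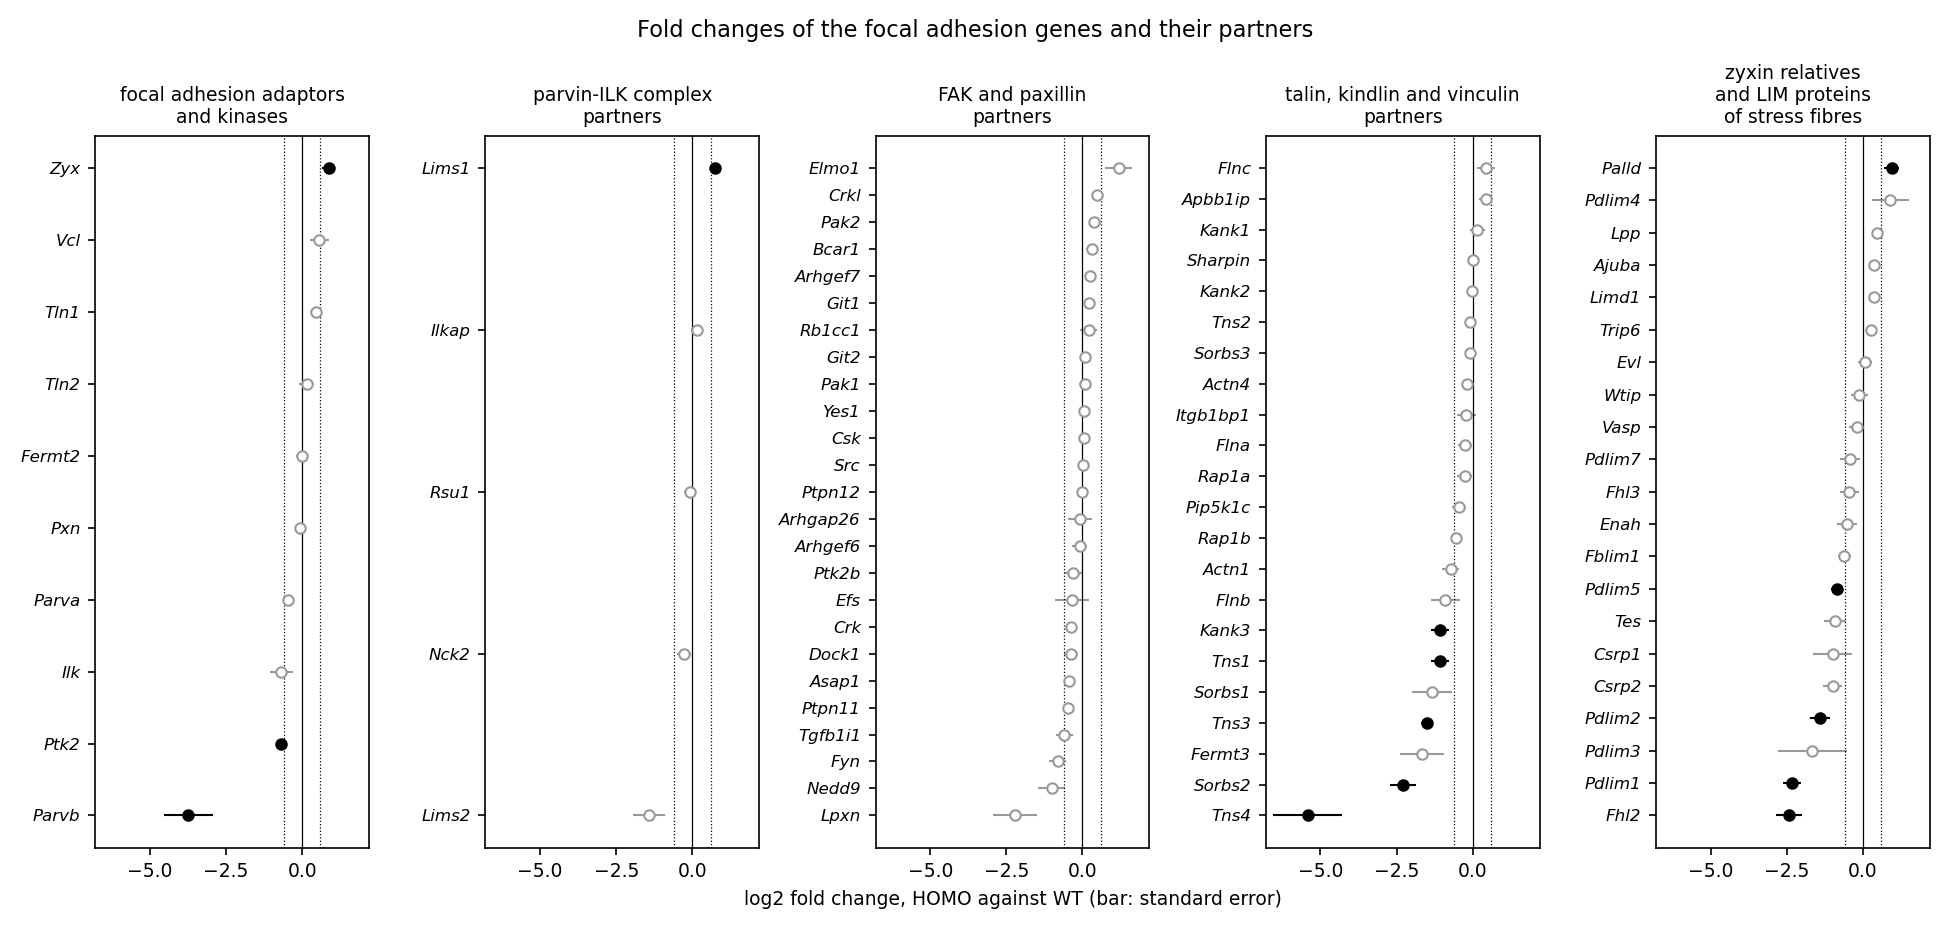
Log2 fold change of HOMO against WT with its standard error for the 10 genes and for the tested genes of the 4 partner lists; filled points are DEGs, dotted lines mark 0.6 in either direction, and genes of a list are ordered by value. Filled points lie to the left for *Parvb*, *Ptk2*, the tensins *Tns1*, *Tns3* and *Tns4*, *Sorbs2*, *Kank3*, *Fhl2*, *Pdlim1*, *Pdlim2* and *Pdlim5*. Those of *Zyx*, *Lims1* and *Palld* lie to the right.

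Over all 4 lists, 11 of 73 tested partner genes were DEGs (15.1%), 2 upregulated and 9 downregulated, beside 12.1% of all genes tested, of which 5.94% were upregulated and 6.18% downregulated. The CPM of the genotypes did not overlap for 20 of the 73 (27.4%), beside 27.3% of all genes tested. Their median log2 fold change was -0.26. WT3 and WT4, the libraries with the most leukocyte marker RNA, had the highest levels of *Fhl2*, *Sorbs2*, *Pdlim2* and *Pdlim5*. Within WT they also had the highest levels of *Palld*, which was upregulated in HOMO. The part of leukocyte RNA in these levels was not tested. With both libraries left out *Fhl2* fell by 1.48 and *Sorbs2* by 1.35 on the log2 scale. Both genes kept their calls, but that fit rests for WT on WT1 and WT2, which are near-identical.

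Among the 10 genes the near-identical pairs agreed within a log2 difference of 0.19 for the 8 genes other than *Parvb* and *Ilk*, with a median of 0.05. The largest difference within such a pair was 0.56 for *Parvb* and 0.31 for *Ilk*, the 2 genes with the fewest counts. *Parvb*, *Ptk2* and *Ilk* were lower in HOMO1 and HOMO2 than in HOMO3 and HOMO4, and *Zyx* was higher there, its level in HOMO3 and HOMO4 being 0.842-fold that in HOMO1 and HOMO2. The same ratio was 0.846 for *Tln2*, 0.892 for *Pxn* and 0.944 for *Tln1*. It was 1.17 for *Fermt2*, 1.11 for *Parva* and 1.06 for *Vcl*. These differences within HOMO concern 2 pairs of near-identical libraries and were not tested.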

How the data were processed

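RNAseq counts of 4 WT and 4 HOMO libraries were analysed, grouped by the genotype in their labels, with 0 columns left aside. Before deposition the authors cleaned paired-end reads (fastp), mapped them to mm10 (STAR) and made gene counts with featureCounts, which are not normalized; versions, annotation and strand setting are not given in the sources used here, and neither is whether the table's name, which speaks of an outlier taken out, means that a library was removed. Genes were matched by symbol to GENCODE M21 (53739 entries) for position, exon length and exon sharing.

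HOMO was compared with WT in edgeR 4.0.16 (R 4.3.3) by the quasi-likelihood F test after TMM normalization and filterByExpr, over 14150 genes, with Benjamini-Hochberg adjustment and thresholds of 0.05 and 0.6. A standard error is the size of the log2 fold change over the root of F, and 2 prior counts were added for log2 CPM. The fit was also run on simulated data. There all libraries varied independently, without near-identical pairs, so it could not check the fit for such pairs. DESeq2 1.42.0 and limma 3.58.1 served as alternatives; tables and figures used Python 3.11.15, pandas 2.3.3 and matplotlib 3.10.9. Libraries of a genotype with a coefficient of variation under 15% were taken as near-identical.

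At these depths 3 counts equal between 0.0908 and 0.172 CPM, a floor for counting error only. The 10 genes, the 4 partner lists (76 genes) and the 8 marker lists were chosen with earlier results of these data known. Named in each list were up to 4 DEGs in each direction with the largest changes, up to 2 genes not called with the highest CPM, and paralogs of the 10 genes. Other genes named were chosen after their values were seen. Motifs were searched in the 250 bases before RefSeq starts (GRCm38.p6).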

Additional observations from a re-analysis of the deposited data

Results flagged for a closer look

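In 31 genes described above, the 4 libraries of each genotype were checked for a library far from the rest, by its gap to the nearest other library as a share of the whole range (Dixon's test). Of 62 groups 2 passed, both through WT3. The usual chance rate of about 1 in 20 assumes independent libraries and does not apply here. WT1 with WT2, HOMO1 with HOMO2 and HOMO3 with HOMO4 were near-identical, which leaves a small gap for most genes in these libraries. The check therefore bears mainly on WT3 and WT4 and says little about the HOMO libraries. For *Zyx*, WT3 stood at 8.83 log2 CPM against between 9.57 and 9.71 in the other WT libraries. For *Tns1*, WT3 stood at 8.75 log2 CPM against between 10.02 and 10.16. WT3 also had the highest leukocyte marker sum and the highest *Igfbp5*; the part of either in these values was not tested.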

How the results depend on the processing

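The 1716 DEGs became 2913 in DESeq2, 3573 in limma-voom with sample weights, 398 at an adjusted p under 0.01, and 0 in edgeR (2057 with an unadjusted p under 0.05) and 720 in DESeq2 with near-identical libraries summed. Leaving out WT3 and WT4 together, an alternative chosen after seeing the data, gave 3117. In that fit the spread within WT comes only from WT1 and WT2, which are near-identical. Among the 10 focal adhesion genes the count of 3 became 0 at the stricter threshold, and 0 and 1 (*Parvb*) with near-identical libraries summed. With WT3 and WT4 left out, in DESeq2, in limma-voom and under the other normalizations and filters it was the same 3 genes. In limma-voom *Parva*, *Pxn*, *Vcl*, *Tln1* and *Fermt2* also had an adjusted p under 0.05 (0.00524, 0.0122, 0.00128, 0.00235 and 0.0193). Only the fold change threshold kept them from being called. The same held in edgeR without WT3 and WT4 for *Parva*, *Vcl* and *Tln1* (adjusted p = 0.0339, 0.00557 and 0.0213). The 11 partner DEGs became 18 in limma-voom, 2 at the stricter threshold, and 0 and 5 with near-identical libraries summed. Leaving out 1 library at a time gave between 507 and 2192 DEGs, between 0 and 3 of the 10 genes and between 3 and 13 partners; the lowest counts of the 10 genes were 0 without HOMO1 and 1 without WT2 or HOMO2.

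Nothing in the labels ties libraries with the same replicate number, and they were not treated as pairs. Deviations of same-numbered libraries from their genotype mean correlated between -0.12 and 0.01, and those of other combinations between -0.17 and 0.17. With near-identical libraries inside each genotype, these correlations cannot exclude a pairing. With the replicate block 947 DEGs were called, among them 1 of the 10 genes, *Parvb*, and 8 partners.

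Directions turned for 5 genes that were not called. *Pxn* was 0.011 in edgeR and 0.0065 in DESeq2 with libraries summed, and between -0.22 and 0.0018 without 1 library. *Fermt2* was 0.0038 with upper-quartile normalization, 0.29 in limma-voom (adjusted p = 0.0193), 0.25 without WT3 and WT4, and between -0.11 and 0.11 without 1 library. *Tln2* was between -0.016 and 0.42 and *Rsu1* between -0.17 and 0.10 without 1 library; *Rsu1* was 0.10 in limma-voom and 0.14 without WT3 and WT4, and *Fermt3* was 0.22 and 0.23 there. The causes were not tested. Counts were low for *Ilk*, *Parvb* in HOMO1 and HOMO2, *Tns4* and *Parvg*, which makes their values less certain.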
